A study of Homo sapiens with 3 samples.

Results

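Toll-like receptors recognise microbial products and pass the signal to a small set of shared proteins. The genes described here encode 10 of these: the lipopolysaccharide coreceptors CD14 and MD-2 (gene LY96), the adaptors MyD88, TIRAP and TRIF (gene TICAM1), the kinases and pseudokinases IRAK4, IRAK1, IRAK2 and IRAK-M (gene IRAK3), and the ubiquitin ligase TRAF6. They were chosen by function, and all 10 were found among 20037 protein-coding records on chromosomes 1 to 22, X and Y. Each was described with every peak that overlapped its record or 50 kb either side, together called its window.

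Chromatin immunoprecipitation followed by sequencing was made in THP1, a human monocytic leukaemia line, labelled wild type and treated for 24 h with PMA, a phorbol ester under which the cells stop dividing and attach like macrophages. One library was made with an antibody to H3K27ac (acetylated lysine 27 of histone H3, a mark of active promoters and enhancers), 1 with an antibody to the NAD-dependent deacetylase SIRT1, and 1 was an input whose signal was not used here. All 3 samples carried the same treatment, so no value below is a response to PMA. Neither antibody has a second library, so nothing was tested between groups and intervals cover counting error only.

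As background, lipopolysaccharide is handed by CD14 to MD-2 bound to the receptor TLR4. At the plasma membrane TIRAP brings MyD88 to the receptor, MyD88 assembles IRAK4 with IRAK1 or IRAK2, and TRAF6 then builds ubiquitin chains that lead to NF-kB and AP-1. TRIF serves TLR3 and internalised TLR4 and leads to interferon genes, while IRAK-M restrains the MyD88 branch in monocytes and macrophages.

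The cell type check and the lists are given once. H3K27ac lay within 1 kb of the start of 8 of 10 macrophage markers, with MARCO and CD163 as the exceptions. It lay there in 2 of 10 B cell, 3 of 8 T cell and 1 of 10 epithelial markers, and in 56.9% of all protein-coding genes. The lists held 48735 H3K27ac peaks and 95517 SIRT1 peaks on the chromosomes used. A gene start was the start listed by RefSeq (8 of the 10 genes); TIRAP and LY96 have no entry in the table of starts, so both ends of their records were searched.

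The promoters below are shown because the acetylated starts described next lie directly downstream of them. They are the 250 bases before the listed start, read 5′ to 3′ on the gene's strand from RefSeq (GRCh38.p14), for the gene with the highest H3K27ac fold at its start (IRAK1), the 2 in the middle of the order by fold (TRAF6 and MYD88), and 2 chosen after their values were seen (TICAM1 and CD14). Capitals mark matches to 9 motifs searched on both strands.
IRAK1 (chrX:154019903-154020152, minus strand): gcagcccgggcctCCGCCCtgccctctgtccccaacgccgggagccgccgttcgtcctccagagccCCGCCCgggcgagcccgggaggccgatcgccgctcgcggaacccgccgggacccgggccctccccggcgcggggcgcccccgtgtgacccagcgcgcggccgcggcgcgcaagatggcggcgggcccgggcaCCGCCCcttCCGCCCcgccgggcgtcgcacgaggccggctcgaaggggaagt
TRAF6 (chr11:36510273-36510522, minus strand): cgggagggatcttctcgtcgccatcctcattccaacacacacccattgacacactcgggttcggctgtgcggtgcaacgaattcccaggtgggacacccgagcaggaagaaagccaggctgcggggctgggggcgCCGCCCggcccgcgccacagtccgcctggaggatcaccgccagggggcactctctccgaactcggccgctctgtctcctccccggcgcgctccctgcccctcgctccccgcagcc
MYD88 (chr3:38138411-38138660, plus strand): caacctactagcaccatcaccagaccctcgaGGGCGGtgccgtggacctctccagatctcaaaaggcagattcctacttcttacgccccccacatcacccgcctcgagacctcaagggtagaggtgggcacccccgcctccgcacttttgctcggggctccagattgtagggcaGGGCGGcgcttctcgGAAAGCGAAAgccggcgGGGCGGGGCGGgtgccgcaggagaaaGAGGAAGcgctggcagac
TICAM1 (chr19:4831713-4831962, minus strand): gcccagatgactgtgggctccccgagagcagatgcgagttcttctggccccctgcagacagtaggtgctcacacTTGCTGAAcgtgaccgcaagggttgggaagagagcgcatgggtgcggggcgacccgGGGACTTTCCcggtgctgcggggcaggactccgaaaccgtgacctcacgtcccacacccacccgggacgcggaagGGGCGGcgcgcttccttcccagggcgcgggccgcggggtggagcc
CD14 (chr5:140633176-140633425, minus strand): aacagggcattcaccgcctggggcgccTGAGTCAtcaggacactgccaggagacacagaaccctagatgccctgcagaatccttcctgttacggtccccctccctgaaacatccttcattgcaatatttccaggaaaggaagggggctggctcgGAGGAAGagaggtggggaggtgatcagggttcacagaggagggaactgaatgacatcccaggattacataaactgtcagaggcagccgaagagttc

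The motifs searched were NF-kB (GGGA, any base, then TTTCC), interferon response element (GAAA, any 2 bases, then GAAA), AP-1 (TGANTCA), PU.1 (GAGGAAG), ETS (CCGGAAG), C/EBP (TTGCNNAA), E-box (CACGTG), GC box (GGGCGG) and TATA box (TATAAA). TICAM1 held the NF-kB letters at −120 to −111 from its start, and 0.477% of the 22199 promoters in the RefSeq table held them. MYD88 held the interferon response letters at −61 to −52, found in 2.71% of promoters, and the PU.1 letters at −18 to −12, found in 11.9%. CD14 held the AP-1 letters at −223 to −217 and the PU.1 letters at −96 to −90; 5.36% of promoters held the AP-1 letters. It was the only 1 of the 8 promoters without a GC box, which 53.7% of promoters held; neighbouring GC boxes overlap by 1 base in MYD88 and in IRAK2. IRAK3 held an E-box at −70 to −65 (7.37% of promoters) and IRAK4 an ETS match at −175 to −169 (10.7%). The C/EBP letters (7.5%) were found in TICAM1 and IRAK4, and the TATA letters (9.0%) in none of the 8. A match is only a run of letters, and no binding was measured for these factors.

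CD14 also differed in base composition: its CpG content was 0.268 of that expected from its C and G, against 0.734 to 1.02 in the other 7 promoters. Of all promoters, 19.8% had a lower ratio than CD14. Among promoters with a ratio under 0.4, 1257 of 6334 (19.8%, exact 95% interval 18.9 to 20.8) had an H3K27ac peak within 1 kb of the start. At a ratio of 0.8 or more, 6933 of 8578 had one (80.8%, interval 80.0 to 81.7). Some genes have several listed promoters that share a peak, and each was counted separately, so these intervals are too narrow. CD14 was acetylated in a class of promoters that mostly were not.

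**Figure D1:**
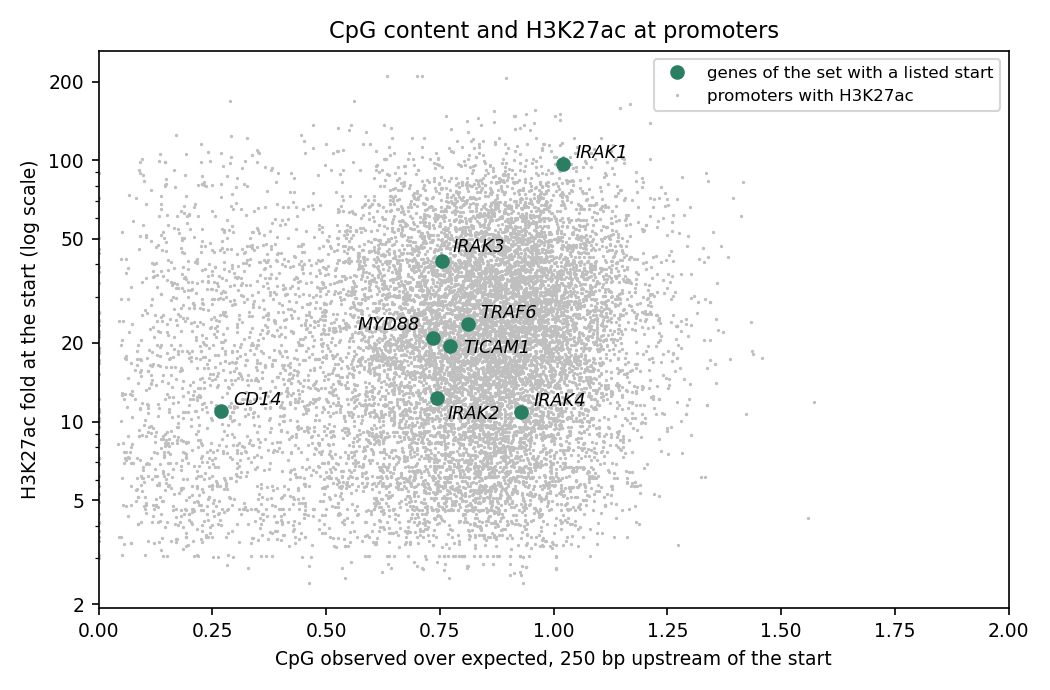
CpG observed over expected in the 250 bp before each listed start (horizontal) against the strongest H3K27ac fold within 1 kb of it (vertical, log scale), for promoters of the RefSeq table with a peak there (grey) and the 8 genes of the set with a listed start (green). CD14 stands at 0.268 with a fold of 11.0, and the other 7 lie between 0.734 and 1.02.

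H3K27ac marked the start, or for TIRAP and LY96 an end, of all 10 genes, where the same rule called 56.9% of all protein-coding genes. Of the 8 with a listed start all 8 had the mark, against 59.4% of genes with a listed start. The fold, the authors' ratio of the summit to its local background, ran from 10.9 to 96.8 with a median of 22.2. Over the 11401 genes acetylated by this rule the median was 19.0, and 7 of the 10 lay above it. The coreceptor, adaptor, kinase and ligase genes were all acetylated, at folds between the 28.1st percentile of acetylated genes (IRAK4) and the 98.8th (IRAK1).

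Of the coreceptors, LY96 (chromosome 8, 73991392 to 74099857) had a peak of 2048 bp at its lower record end with a fold of 29.4 (counting interval 23.8 to 35.8). CD14 (chromosome 5, 140631732 to 140633701) had a fold of 11.0 (7.98 to 14.7), on 42 fragments recovered at the summit over a background of 2.92. A second, weaker peak with a fold of 3.06 had its summit at −371 bp from the CD14 start. Fragments and background were recovered from the deposited fold and p, as described under the processing.

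Of the adaptors, TIRAP, which carries MyD88 to the membrane (chromosome 11, 126283093 to 126294933), had the highest fold, 32.3 (25.6 to 40.4), at its lower record end. MYD88 (chromosome 3, 38138661 to 38143022) had 20.8 (15.4 to 27.4) and TICAM1 (chromosome 19, 4815932 to 4831712) had 19.4 (14.9 to 24.7). The interval of MYD88 overlaps those of both TICAM1 and TIRAP, so its order against either is not resolved at this depth. The fold intervals of TIRAP and TICAM1 do not overlap, but their fragment intervals do. TIRAP had 76 fragments (59.9 to 95.1) over a background of 1.38, and TICAM1 62 (47.5 to 79.5) over 2.25.

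Of the kinase family, IRAK1 (chromosome X, 154010507 to 154019902) stood highest of all 10 genes with a fold of 96.8 (83.6 to 112) on 190 fragments. This was above 98.8% of acetylated genes, and its interval did not meet that of the next gene. IRAK3, the restraining member (chromosome 12, 66189214 to 66254622), followed with 41.3 (34.6 to 48.8). IRAK2 (chromosome 3, 10164919 to 10243745) had 12.3 (9.29 to 15.9), and IRAK4, the first kinase of the complex (chromosome 12, 43758951 to 43789541), had the lowest fold of the set, 10.9 (7.13 to 16.0) on 24 fragments.

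TRAF6, the ubiquitin ligase at the foot of the complex (chromosome 11, 36483769 to 36510272), had a fold of 23.6 (18.9 to 29.2). In the full order IRAK1, IRAK3, TIRAP, LY96, TRAF6, MYD88, TICAM1, IRAK2, CD14, IRAK4, every neighbouring pair after the first had overlapping intervals. Ranked by fragments in place of fold, LY96 with 95 and TRAF6 with 84 stood before TIRAP with 76; the recovered background was 2.27, 2.59 and 1.38 at these 3 summits. MYD88 with 48 fragments then stood behind TICAM1 with 62 and IRAK2 with 55, as the lowest of the 3 adaptors.

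The summit lay downstream of the start in all 8 genes with a listed start, at 167 to 447 bp. Over 9406 genes acetylated at a listed start the summit lay downstream in 70.8%, with a median of 180 bp. Several start peaks also lay at another gene. The record of TRAF6 ends 81 bp from that of RAG1, a lymphocyte recombinase gene, and the record of IRAK4 begins 161 bp from that of PUS7L. The peak at MYD88 came within 1 kb of an end of ACAA1, and CD14 lies inside the record of TMCO6. At these 4 genes the mark cannot be told apart from that of the neighbour.

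**Figure D2:**
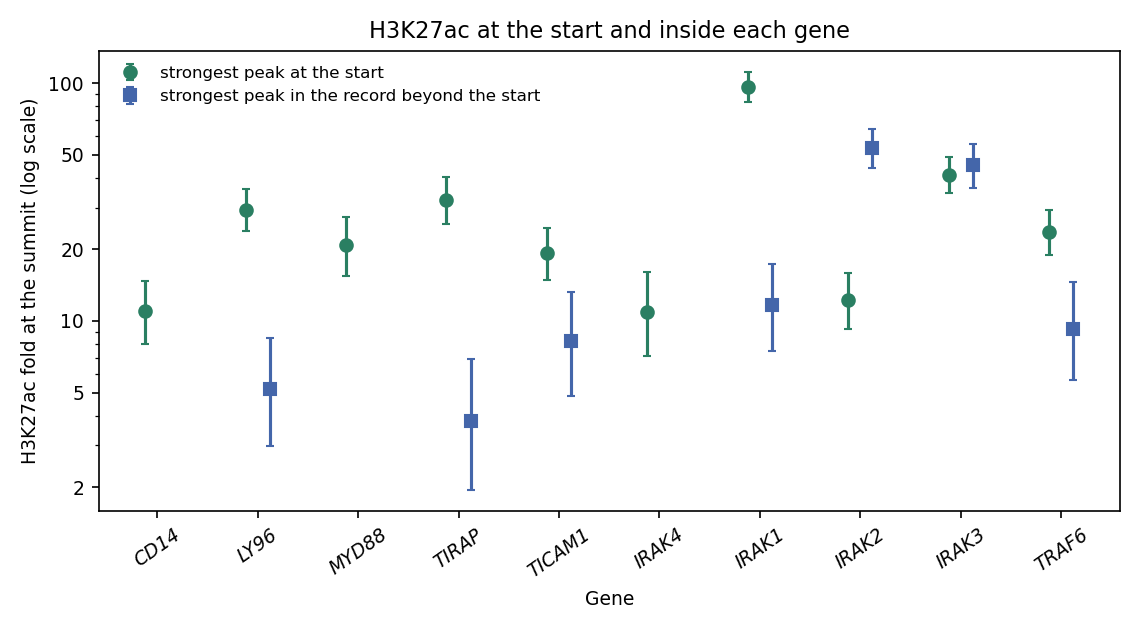
Strongest H3K27ac fold within 1 kb of the start (circles; for TIRAP and LY96 of a record end) and in the rest of the gene record (squares) on a log scale, with exact 95% counting intervals. IRAK2 is the gene whose inner peak, at 53.5, stands clear of its start peak at 12.3; CD14, MYD88 and IRAK4 have no inner peak.

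Beyond the start the number of peaks differed between the genes. IRAK2 had 18 further H3K27ac peaks in its record and IRAK3 had 10. IRAK1 had 4, TRAF6 had 3, TIRAP, TICAM1 and LY96 had 1 each, and MYD88, IRAK4 and CD14 had 0. These counts were not adjusted for record length, which ran from 1970 bp at CD14 to 108466 bp at LY96. The records of IRAK2 (78827 bp) and IRAK3 (65409 bp) were the longest after LY96. Peaks reaching within 1 kb of the start were left out, and most of the CD14 record lies within that distance. In 2 of the 10 genes the strongest inner peak exceeded the start peak in fold, and this was so in 11.0% of acetylated genes.

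At IRAK2 the inner peak spanned 10187560 to 10200829, 13270 bp in width, with its summit 27719 bp from the start. It had a fold of 53.5 (44.0 to 64.4) on 110 fragments, against 12.3 on 55 fragments at the start, and neither the fold nor the fragment intervals overlapped. Further inner peaks of IRAK2 had folds of 29.7 at 63456 bp, 23.6 at 8647 bp and 20.2 at 41353 bp. Together H3K27ac peaks covered 42.8% of its record of 78827 bp, and joining peaks over gaps of the length usual in super-enhancer calling gave a domain of 85.1 kb, which ended with the TATDN2 peak beyond the record. This length rested on the joining distance: it was 47.5 kb with gaps of up to 5 kb joined and 135 kb with gaps of up to 25 kb.

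At IRAK3 the strongest inner peak spanned 66234121 to 66241831 with a fold of 45.3 (36.4 to 55.7), against 41.3 at the start. Here the intervals overlapped, and by fragments the order was the other way, with 87 at the inner peak over a background of 0.944 and 134 at the start over 2.27. Inner peaks with folds of 15.8, 15.7 and 17.4 lay 7284, 22103 and 28737 bp from the start, and 41.3% of the record was covered. A peak with a fold of 33.6 lay between genes, 79165 bp from the start.

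IRAK4 and LY96 were the opposite case. IRAK4 had no inner peak in its record of 30591 bp, and the 2.75% covered lay at the start. LY96 had 1 inner peak, with a fold of 5.19, in a record of 108466 bp of which 1.43% was covered. The short records of IRAK1 and CD14 were covered over 78.2% and 70.3%. The median share of a record under H3K27ac was 16.0% in the 10 genes and 4.99% in all acetylated genes.

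**Figure D3:**
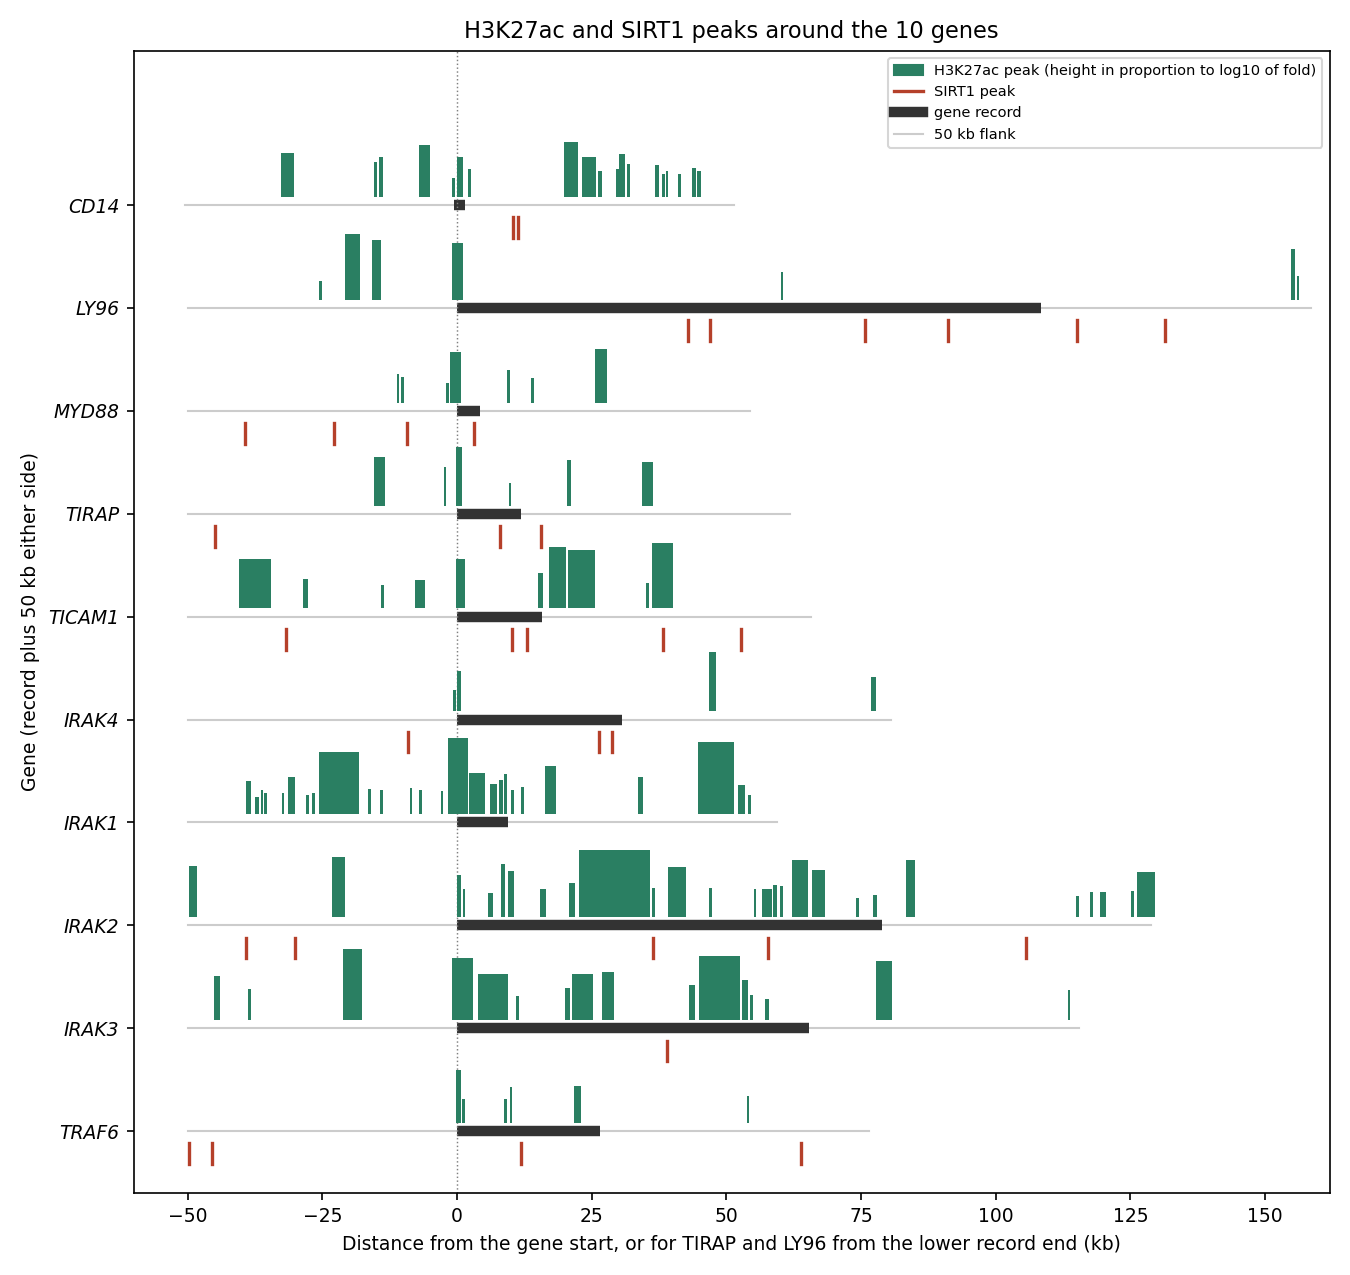
H3K27ac peaks (green, height in proportion to log10 of fold) and SIRT1 peaks (red ticks) by distance in kb from the gene start, drawn in the direction of transcription, or for TIRAP and LY96 from the lower record end; black bars are gene records and grey lines the 50 kb on either side. IRAK2 and IRAK3 carry peaks along their records, LY96 and IRAK4 mainly at the start, and IRAK1 has no SIRT1 tick.

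The windows held 128 H3K27ac peaks in all, from 4 at IRAK4 and 6 at TIRAP and TRAF6 to 26 at IRAK1 and 27 at IRAK2. All 10 windows had at least 1, as did 83.0% of all genes. Of the 128, 13 lay at the start of the gene itself, 38 elsewhere in its record, 24 at the start of another gene (or either end where no start is listed), 38 inside the record of another gene and 15 between genes. The share of the window under H3K27ac was 31.1% at IRAK1, 24.7% at IRAK2, 21.9% at IRAK3, 20.8% at TICAM1 and 18.4% at CD14. It was 5.87% at TIRAP, 5.77% at MYD88, 4.05% at LY96, 3.26% at TRAF6 and 2.43% at IRAK4. The first 5 lay above 95.5% or more of all genes, and the other 5 between the 50.2nd and 73.0th percentile. The median was 12.1% in the 10 genes, 4.05% in all acetylated genes and 2.42% in all genes.

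In 7 of the 10 windows the strongest peak lay away from the gene's own start: inside the record at IRAK2, inside that of TMCO6 at CD14, and at the start or end of another gene at MYD88, TICAM1, IRAK3, IRAK4 and LY96. Over all genes acetylated at the start this was so in 49.9%. In 6 of the 7 the fold intervals of the strongest peak and the start peak did not overlap, and at MYD88 they did. These intervals hold the recovered background fixed. At CD14 the strongest peak had 58 fragments over a background of 1.3, and the start peak 42 over 2.92. At TICAM1 it was the peak at FEM1A with a fold of 48.5. TICAM1 also had 2 wide peaks between genes, 4806109 to 4811186 with a fold of 32.5 and 4811514 to 4814579 with 39.6, both above the 19.4 at its own start. At MYD88 the strongest was the peak at OXSR1 (25.1, interval 20.9 to 30.0), at IRAK3 that at TMBIM4 (67.9), at IRAK4 that at TWF1 (33.9) and at LY96 that at ELOC (49.3). At CD14 the strongest, with a fold of 25.7, lay 20487 bp downstream of its start inside the record of TMCO6. The exceptions were TIRAP, IRAK1 and TRAF6. Which gene these peaks serve was not measured.

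The window of IRAK1 combined strong and weak peaks. Besides its start, a peak at HCFC1 and TMEM187 (153968498 to 153975083) had a fold of 72.3, while 13 of its 26 peaks had folds under 5. At TIRAP the neighbours carried lower folds than TIRAP itself, 17.6 at SRPRA and FOXRED1 and 15.4 at DCPS, but on 102 and 99 fragments against 76 at TIRAP. At IRAK2 the flanking peaks at VHL, BRK1 and TATDN2 had folds of 36.0, 21.4 and 30.9, all below the 53.5 inside IRAK2.

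No gene of the 10 had a SIRT1 peak within 1 kb of its start, where 6.23% of all genes had one. In a set of 10 genes a count of 0 is close to that share, so it does not set these genes apart. In the 7 genes with both a listed start and a SIRT1 peak in the window, the nearest edge lay between 3038 bp from the start at MYD88 and 38795 bp at IRAK3. In the wider windows 9 of 10 genes had at least 1 SIRT1 peak, and so did 92.7% of all genes. The number was 6 at LY96, 5 at TICAM1 and IRAK2, 4 at MYD88 and TRAF6, 3 at TIRAP and IRAK4, 2 at CD14, 1 at IRAK3 and 0 at IRAK1. Per 100 kb of window the median was 2.74 in the 10 genes and 2.74 in all genes.

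These 33 SIRT1 peaks rested on few fragments. At the summit 13 had 2 fragments, 16 had 3, 3 had 4 and 1 had 5. The share on 2 or 3 fragments was 87.9%, against 84.4% of all SIRT1 peaks. The −log10 q was 0 for 29 of the 33, and 0 of the 33 reached a q of 0.05. The peak on 5 fragments lay inside IRAK3, from 66228009 to 66228263, with a fold of 4.41 and a −log10 q of 0.614. It fell in the longest stretch of the IRAK3 record without H3K27ac, 66218331 to 66232335. The peaks on 4 fragments were 1 inside TIRAP with a fold of 3.53, 1 beyond its upper end with 3.46, and 1 with its edge 8979 bp upstream of the IRAK4 start with 3.67.

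**Figure D4:**
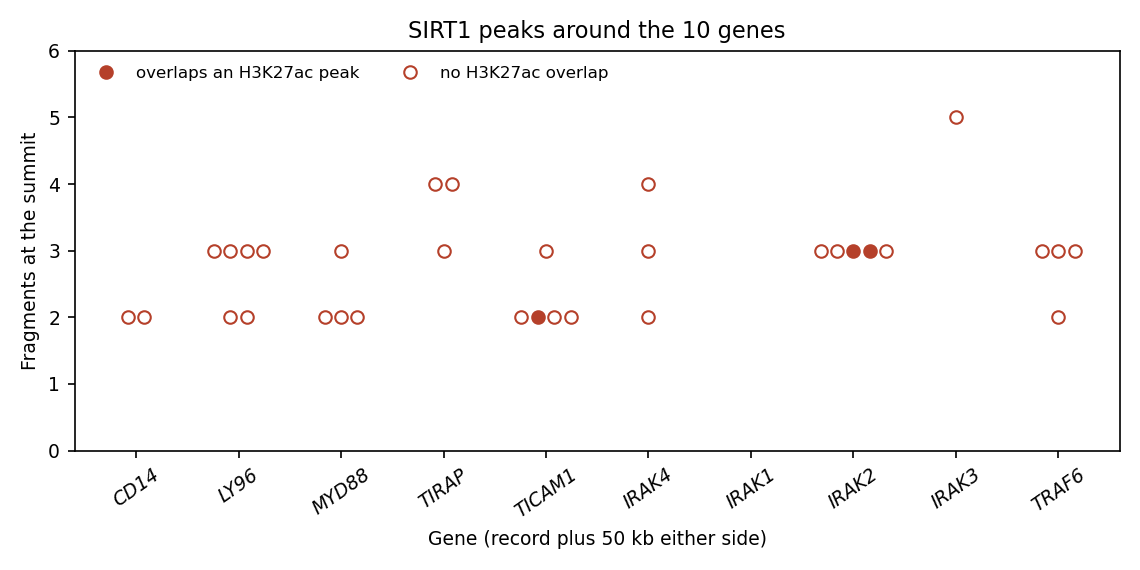
Each of the 33 SIRT1 peaks in the 10 windows, by gene and by the number of fragments recovered at its summit; filled points overlap an H3K27ac peak. Nearly all stand at 2 or 3 fragments, the highest is the peak with 5 at IRAK3, and IRAK1 has none.

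Of the 33 peaks 3 overlapped an H3K27ac peak, or 9.09% (exact 95% interval 1.92 to 24.3). Over all SIRT1 peaks the share was 0.745%, and in windows of genes acetylated at the start it was 1.64%. Of the 3, 2 lay inside IRAK2, at 10201088 to 10201361 and 10222542 to 10222817, on 3 fragments each, over H3K27ac peaks with folds of 5.70 and 5.46. The other lay at FEM1A in the TICAM1 window, at 4793213 to 4793578, on 2 fragments, over the peak with a fold of 48.5. All 3 had a −log10 q of 0. The interval takes the 33 peaks as independent, which the 2 in the same gene may not be. IRAK2 and TICAM1 are also among the genes with the most H3K27ac coverage, and the part of that coverage in the overlap was not tested.

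IRAK1, the gene with no SIRT1 peak in its window, lies on chromosome X. On that chromosome 28.7% of 848 genes had no SIRT1 peak in their window, against 6.36% of 19126 autosomal genes, and the median per 100 kb was 0.913 on X and 2.82 on the autosomes. The part of the chromosome in the count at IRAK1 was not tested.

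Other genes of the pathway were read from lists of 54 genes. H3K27ac lay at the start of 45 of the 54 (83.3%), against 56.9% of all genes, with a median fold of 26.9. Of the 10 Toll-like receptor genes 5 had it: TLR6 at 54.4, TLR1 at 30.9, TLR2 at 30.0, TLR4 at 11.3 and TLR9 at 3.48. TLR3, TLR5, TLR7, TLR8 and TLR10 had none at the start. Of the receptor partners 6 of 7 had it, from UNC93B1, which carries receptors to endosomes, at 29.6 to LY86 at 4.65; LBP, the lipopolysaccharide carrier made by liver, had none.

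All 17 kinase and ubiquitin genes were acetylated, led by TAB2 at 136, UBE2V1 at 95.4 and TRAF3 at 93.7. TAB2 encodes a ubiquitin-binding partner of the kinase TAK1, and UBE2V1 a cofactor of the ubiquitin-conjugating enzyme that works with TRAF6. Of the other adaptors and brakes 5 of 6 had the mark, with PIK3AP1 at 33.5 and TICAM2, the bridging adaptor of TRIF, at 10.0, and SARM1 was the exception. Of 14 end points 12 had it, NFKB1 at 74.4 being the highest, and IL6 and IFNB1 had none. SIRT1 lay at the start of 2 of the 54 genes, TLR3 and CD36, where 6.23% of all genes had it. This count does not set the pathway genes apart.

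**Figure D5:**
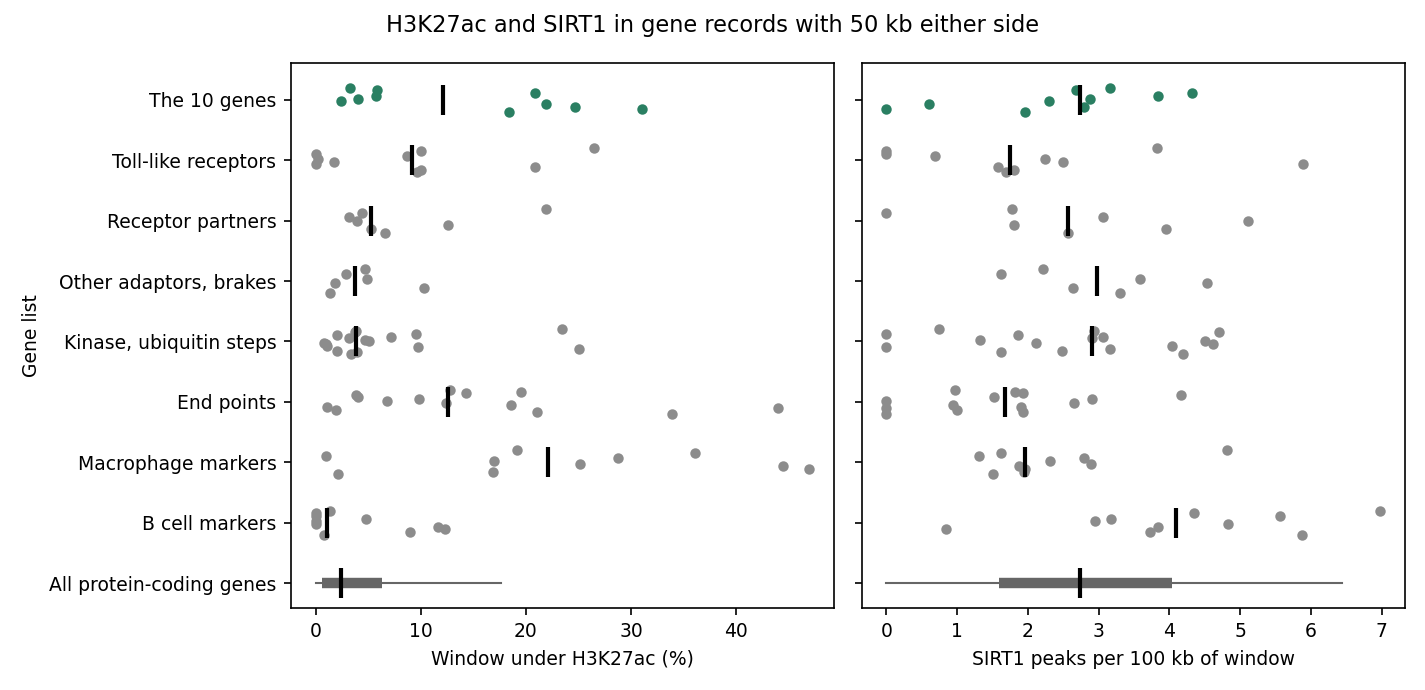
Share of each gene's window under H3K27ac (left, percent) and SIRT1 peaks per 100 kb of window (right) for the 10 genes (green), other pathway lists and markers (grey), with black ticks at medians; for all genes the thick bar spans the 25th to 75th percentile and the thin line the 5th to 95th percentile. The 10 genes split on the left into 5 at 18.4% or more and 5 at 5.87% or less, while on the right they lie within the range of all genes.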

How the data were processed

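H3K27ac and SIRT1 were each mapped in 1 library. MACS2, deepTools and hg38 are named, per the submitters' processing notes. Not given in the sources used here: their versions, the aligner, and whether the input served as control. Per the labels the DNA came from sonicated nuclei. Peak names deposited by the authors carry a duplicate-marking step. The fold at the summit (a ratio to local background), the −log10 p and the −log10 q of each peak are the authors' values. The score deposited by the authors was 10 times −log10 q for H3K27ac and 10 times −log10 p for SIRT1 in 100% of peaks, cut to a whole number. The smallest −log10 q was 1.30 for H3K27ac; the SIRT1 list begins at a −log10 p of 2.00 and includes peaks with a −log10 q of 0. The cut-offs thus acted on different quantities, and folds were compared within a list.

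Overlap meant at least 1 base. Records were RefSeq protein-coding genes (GRCh38.p14); 15843 of 20037 had a listed start, and for the others both ends were used. Fragments n and background b were recovered by taking the fold as n plus 1 over b plus 1 and p as a Poisson tail. There was 1 whole-number solution for all peaks printed. Simulated data made with the same formulas tested the code only, and cannot show that the deposited values follow these formulas. Intervals are exact Poisson or binomial, 95%, for counting error only. Read totals are unknown. CpG and motifs were counted in 250 bases before each listed start.

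No test across genes or peaks was made. All 10 members are named; other genes are those at whose start or end a peak in a window lies, and per list the highest and the unmarked ones; those beyond this were chosen after their values were seen. The members and lists were chosen with earlier results of these data known. Alternatives were thresholds, overlap, flank, start window and stitching distance. Software was scipy 1.17.1, pandas 2.3.3, numpy 2.4.6 and matplotlib 3.10.9 under Python 3.11.15. Some results near the named genes are not reported here.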

Additional observations from a re-analysis of the deposited data

How the results depend on the processing

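All 10 genes had H3K27ac at the start and in the window, and 0 had SIRT1 at the start, under every setting run. The number of pathway genes with H3K27ac at the start, reported as 45, fell to 35 with 50% of the peak required. It was 43 to 45 under the other settings. The share over all genes was not recomputed under these settings. Each setting below uses fewer peaks, or smaller or larger regions, by construction; beyond that the cause was not tested.

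With a fold of at least 4 the windows kept 111 H3K27ac peaks and a median share of 11.3%; SIRT1 was left with 1 peak in 1 window, 0 overlaps and 0 pathway starts. With a −log10 q of at least 5 the share was 10.8% and SIRT1 had 0 peaks, 0 windows, 0 overlaps and 0 pathway starts. A flank of 10 kb gave 68 H3K27ac peaks, a share of 15.5% and 20 SIRT1 peaks; 100 kb gave a share of 10.4% and 59 SIRT1 peaks; the record alone gave 50 H3K27ac peaks, 16.0% and 14 SIRT1 peaks. The number of pathway genes with SIRT1 at the start was 1 with 50% of the peak required, 1 with a start window of 500 bp, 6 with 2500 bp and 4 with either record end. SIRT1 peaks on at least 4 fragments, a setting chosen after seeing the data, left 4 peaks in 3 windows with 0 overlaps. The 50% overlap was not run for the window share, which counts bases.

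No strongest fold at a start changed with a start window of 500 or 2500 bp. No paired analysis was possible because each antibody has 1 library. Of the SIRT1 peaks here 87.9% rest on 2 or 3 fragments, so their numbers carry a large counting error.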
